A study of Mus musculus with 8 samples.

Results

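The 10 genes described here belong to the transcriptional program of the stress factor ATF4 and to the serine synthesis pathway. They are Atf4, Ddit3, Trib3, Chac1, Asns, Phgdh, Psat1, Shmt2, Mthfd2 and Slc7a11, and they were taken from the deposited table by gene name. All 10 were listed among its 12528 genes, and all 10 passed the filter on low values that was applied before testing. RNA-seq was performed on mouse embryonic fibroblasts (MEFs) that were immortalized after isolation from wild-type (WT) and Cav1KO littermates. Cav1KO cells lack caveolin-1, the membrane protein that forms caveolae. Cells of both genotypes were grown at low confluence for 24 h on polyacrylamide hydrogels that were stiff or soft, with no other treatment. The 4 groups were WT soft, WT stiff, Cav1KO soft and Cav1KO stiff, with 2 libraries each. The sources used here do not say how many cell lines were made per genotype, so the genotype and the line cannot be told apart. The labels also do not say whether the 2 libraries of a group came from separate cultures, and p-values therefore measure only the spread between these samples, which may be technical.

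ATF4 is a transcription factor whose protein is made in larger amounts when phosphorylation of eIF2α slows general translation, as happens in the absence of amino acids, in endoplasmic reticulum (ER) stress or with damaged mitochondria. It binds composite C/EBP-ATF sites and activates genes for amino acid synthesis, amino acid import and tRNA charging, and also genes that limit the response or promote cell death. Proliferating fibroblasts use the serine pathway to make serine and glycine from a glycolytic intermediate and to supply one-carbon units for nucleotide synthesis. Because much of the control of ATF4 lies in the translation of its mRNA, the Atf4 mRNA level is not a measure of ATF4 protein, which was not measured here.

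Summed over the genes of the deposited table, the libraries held 17089836 to 19944952 reads. In these libraries 3 reads, the number that a count of 0 allows, correspond to 0.151 to 0.181 CPM. These limits cover counting error only. The deposited values are counts scaled to library size (CPM) after TMM normalization, which corrects each library for differences in composition. The targeted gene Cav1 ranged from 949.8 to 1157 CPM over the WT libraries, and no Cav1KO library exceeded 0.411 CPM. Of 10 fibroblast markers, 8 were listed, among them Col1a1, Vim and Pdgfra, and their summed level was 8796 to 9035 CPM in WT stiff, 11182 to 11379.9 CPM in WT soft, 4397 to 5530.2 CPM in Cav1KO stiff and 13302 to 13344 CPM in Cav1KO soft. On the stiff substrate 6 of the 8 were lower in WT cells and all 8 in Cav1KO cells, beside 26.3% and 28.2% of all genes tested. The part of these changes in the results below was not tested. Of the macrophage markers Cd68 was listed, at 4.55 CPM or less, and of the muscle markers Mylpf, at 1.24 CPM or less. The other macrophage and muscle markers and all epithelial and endothelial markers of the lists are not analysed here.

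To show where the best-known ATF4-type site lies in these genes, promoter sequences of GRCm38.p6 from RefSeq were searched. Each sequence ran from 250 bases before to 50 bases after the annotated transcription start, and all 10 genes had at least one. The composite site was searched as TGATGNAA on both strands, where N is any base. It was found in 4 of the 10 genes, Asns, Slc7a11, Chac1 and Trib3, and Slc7a11 held 2 copies. The stretches that hold it are given 5′ to 3′ on the strand of the gene, with the matching letters in capitals.
Asns chr6:7693210-7693309 minus strand: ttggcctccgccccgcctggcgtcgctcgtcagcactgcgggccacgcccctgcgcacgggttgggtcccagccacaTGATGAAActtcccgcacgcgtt
Slc7a11 chr3:50443614-50443713 minus strand: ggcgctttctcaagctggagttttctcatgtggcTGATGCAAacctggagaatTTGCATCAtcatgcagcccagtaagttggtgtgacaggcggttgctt
Chac1 chr2:119351013-119351112 plus strand: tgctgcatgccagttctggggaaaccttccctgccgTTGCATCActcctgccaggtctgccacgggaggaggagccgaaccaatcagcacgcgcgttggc
Trib3 chr2:152344028-152344057 minus strand: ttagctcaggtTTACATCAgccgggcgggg
In Asns the match began 23 bases before the annotated start, in Slc7a11 66 and 47 bases before it, in Chac1 193 bases before it and in Trib3 14 bases after it. Those in Chac1 and Trib3 and the second in Slc7a11 read TGATGNAA on the opposite strand. The search found no such letters in the windows of Atf4, Ddit3, Phgdh, Psat1, Shmt2 and Mthfd2. As a reference, the letters were present in 2.63% of 9094 genes of the deposited table with a promoter and in 3.97% of all 32851 promoters. Among related genes with a promoter they were found in 5 of 13 stress transcription factors and feedback genes, in 5 of 8 tRNA synthetases known as ATF4 targets, in 2 of 10 genes of proline synthesis, transsulfuration and transamination, in 1 of 10 amino acid transporters and in 1 of 8 ER chaperone genes. The count was 0 of 5 other cytosolic tRNA synthetases and 0 of 13 other genes of serine, glycine and one-carbon metabolism. It was also 0 of 12 genes for eIF2α kinases and associated factors and 0 of 10 glutathione genes and NRF2 targets. A match describes the letters and is not a measured binding site.

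The 10 genes did not move together. In WT cells on the stiff substrate, Asns and the 4 serine and one-carbon enzymes Phgdh, Psat1, Shmt2 and Mthfd2 were higher than on the soft substrate, while Ddit3, Trib3 and Chac1 were lower, and the test was not passed for Atf4 and Slc7a11. In Cav1KO cells the same 5 enzymes were higher on the stiff substrate together with Atf4 and Slc7a11, and Ddit3 and Trib3 were lower. Thus 5 of 10 genes rose and 3 fell with stiffness in WT cells, against 22.1% of all 12494 genes tested that rose and 26.3% that fell. In Cav1KO cells 7 of 10 rose and 2 fell, against 27.9% and 28.2% of all genes. The median stiffness effect over the 10 genes was 0.19 in WT and 0.95 in Cav1KO cells on the log2 scale, beside a median of -0.02 over all genes in both. Changes are differences of log2(CPM + 1) from limma, with Benjamini-Hochberg adjustment over all genes tested and a two-sided threshold of 0.05. The added 1 makes the changes of genes with low values appear smaller. In bulk RNA, fewer cells with a transcript and less transcript per cell cannot be told apart.

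**Figure D1:**
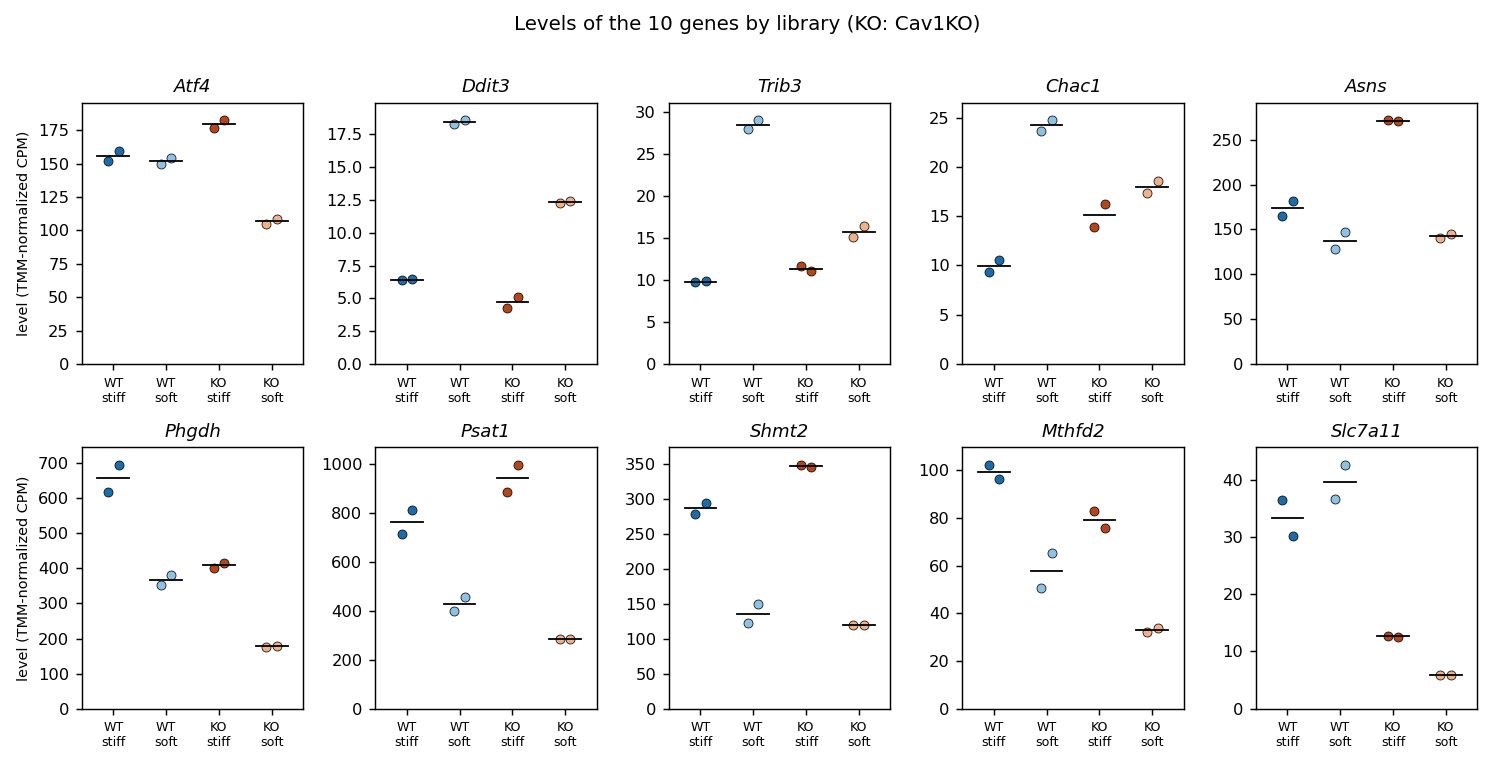
Level of each of the 10 genes in TMM-normalized CPM (vertical axes from 0, a scale of its own for each gene) in the 4 groups. Points are the 2 libraries of a group and bars their mean. Ddit3, Trib3 and Chac1 were highest in the WT soft libraries, whereas Phgdh, Psat1, Shmt2 and Mthfd2 were higher in the stiff libraries of each genotype than in its soft libraries.

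Atf4 (chr15:80255184-80257541, plus strand, 3 exons in its longest coding transcript) encodes the transcription factor itself. Atf4 stood at 152 and 159.7 CPM in WT stiff cells, 149 and 154 CPM in WT soft cells, 177 and 183 CPM in Cav1KO stiff cells and 105 and 109 CPM in Cav1KO soft cells. The WT libraries of both substrates overlapped, the Cav1KO stiff libraries were the highest and the Cav1KO soft libraries the lowest. In WT cells the stiffness effect on Atf4 was 0.04 ± 0.07 (SE, adjusted p = 0.670) and did not pass the test. In Cav1KO cells Atf4 rose on the stiff substrate, by 0.75 ± 0.07 (SE, adjusted p = 4.87e-05), to 1.68 times its mean CPM on the soft substrate. The WT effect on Atf4 minus the Cav1KO effect was -0.71 ± 0.09 (SE, adjusted p = 0.00718). Compared with WT, Cav1KO cells had less Atf4 mRNA on the soft substrate, with a difference of -0.50 (adjusted p = 0.000306), and slightly more on the stiff substrate, with 0.20 (adjusted p = 0.0313).

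Ddit3 encodes CHOP, a transcription factor that ATF4 induces and that promotes cell death when stress persists (chr10:127290774-127296288, plus strand, 4 exons in its longest coding transcript). Ddit3 stood at 6.43 and 6.44 CPM in WT stiff cells, 18.3 and 18.6 CPM in WT soft cells, 4.30 and 5.10 CPM in Cav1KO stiff cells and 12.3 and 12.4 CPM in Cav1KO soft cells. Within each genotype both soft libraries lay above both stiff libraries, and on each substrate the WT libraries lay above the Cav1KO libraries. The stiffness effect was -1.39 ± 0.12 (SE, adjusted p = 8.59e-05) in WT and -1.23 ± 0.12 (SE, adjusted p = 7.80e-05) in Cav1KO cells, which brought the mean CPM on the stiff substrate to 0.349 and 0.381 of that on the soft substrate. Unlike for Atf4, the difference between these effects did not pass the test (-0.16 ± 0.17, adjusted p = 0.541). Exons of Ddit3 share 68 bases with Mars, a gene on the opposite strand at a mean of 144 CPM, and the library kit does not mark strand. The part of Mars reads in the values of Ddit3 was not tested.

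Trib3 encodes a pseudokinase that is induced by ATF4 and CHOP and restrains both (chr2:152337422-152344032, minus strand, 4 exons in its longest coding transcript). Trib3 stood at 9.74 and 9.86 CPM in WT stiff cells, 28.0 and 29.1 CPM in WT soft cells, 11.7 and 11.1 CPM in Cav1KO stiff cells and 15.1 and 16.4 CPM in Cav1KO soft cells. The WT soft libraries stood above all others, and the Cav1KO soft libraries lay above the libraries of both stiff groups. In WT cells Trib3 fell with stiffness to 0.343 of its mean CPM on the soft substrate, an effect of -1.45 ± 0.11 (SE, adjusted p = 4.73e-05), and in Cav1KO cells to 0.721, an effect of -0.44 ± 0.11 (SE, adjusted p = 0.00744). The WT effect was the stronger fall, with a difference of -1.01 (adjusted p = 0.0101). The call in Cav1KO cells was lost under quantile normalization (-0.24, adjusted p = 0.0860) and without the second Cav1KO soft library (-0.38, adjusted p = 0.0672).

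Chac1 encodes an enzyme that degrades glutathione and is induced downstream of ATF4 (chr2:119351229-119354381, plus strand, 3 exons in its longest coding transcript). Chac1 stood at 9.29 and 10.6 CPM in WT stiff cells, 23.6 and 24.8 CPM in WT soft cells, 13.9 and 16.3 CPM in Cav1KO stiff cells and 17.3 and 18.6 CPM in Cav1KO soft cells. As for Trib3, the WT soft libraries were the highest and the WT stiff libraries the lowest of the 4 groups. The stiffness effect was -1.21 ± 0.12 (SE, adjusted p = 0.000150) in WT cells and -0.24 ± 0.12 (SE, adjusted p = 0.131) in Cav1KO cells, and the latter did not pass the test. The difference between the effects was -0.97 (adjusted p = 0.0195). Chac1 was higher in Cav1KO than in WT cells on the stiff substrate, with 0.56 (adjusted p = 0.00509), and lower on the soft substrate, with -0.41 (adjusted p = 0.0194).

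Asns encodes asparagine synthetase, a target of ATF4 in amino acid shortage (chr6:7675169-7693254, minus strand, 12 exons in its longest coding transcript). Asns stood at 165 and 181 CPM in WT stiff cells, 128 and 147 CPM in WT soft cells, 272 and 271 CPM in Cav1KO stiff cells and 141 and 145 CPM in Cav1KO soft cells. The Cav1KO stiff libraries stood apart above the other 3 groups, the WT stiff libraries came next, and the libraries of the 2 soft groups overlapped. Asns rose with stiffness in both genotypes, by 0.33 ± 0.09 (SE, adjusted p = 0.0122) in WT and 0.92 ± 0.09 (SE, adjusted p = 5.87e-05) in Cav1KO cells. The call in WT cells was lost without the second WT stiff library (0.27, adjusted p = 0.0753) and without the first WT soft library (0.23, adjusted p = 0.0882). The WT effect was smaller than the Cav1KO effect, with a difference of -0.58 (adjusted p = 0.0298). Cav1KO cells had more Asns on the stiff substrate, with 0.64 (adjusted p = 0.000351), while on the soft substrate the difference was 0.06 (adjusted p = 0.583).

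Phgdh encodes the first enzyme of serine synthesis, which oxidizes 3-phosphoglycerate (chr3:98313170-98339990, minus strand, 12 exons in its longest coding transcript). Phgdh stood at 617 and 696 CPM in WT stiff cells, 353 and 382 CPM in WT soft cells, 402 and 415 CPM in Cav1KO stiff cells and 177 and 178 CPM in Cav1KO soft cells. On each substrate both WT libraries lay above both Cav1KO libraries, and in each genotype both stiff libraries lay above both soft libraries. The stiffness effect was 0.83 ± 0.08 (SE, adjusted p = 0.000114) in WT and 1.2 ± 0.08 (SE, adjusted p = 1.68e-05) in Cav1KO cells. Cav1KO cells had less Phgdh on the stiff substrate, with -0.68 (adjusted p = 0.000164), and on the soft substrate, with -1.04 (adjusted p = 1.23e-05). Of the 60-base windows of its transcripts, 43.3% also occur in other annotated genes, chiefly the copies Gm7901, Gm9347 and Gm8341. How reads were divided among these is not given, and the values of Phgdh are uncertain for that reason. For each of the other 9 genes the share was 3.21% or less.

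Psat1 encodes the aminotransferase of the second step of serine synthesis (chr19:15904678-15947337, minus strand, 9 exons in its longest coding transcript). Psat1 stood at 713 and 809.6 CPM in WT stiff cells, 398 and 455 CPM in WT soft cells, 884 and 997 CPM in Cav1KO stiff cells and 286 and 285 CPM in Cav1KO soft cells. The stiff libraries of both genotypes lay above all soft libraries, and the Cav1KO libraries formed both the top and the bottom of the range. Psat1 rose to 1.78 times its soft level in WT cells, an effect of 0.83 ± 0.10 (SE, adjusted p = 0.000289), and to 3.29 times in Cav1KO cells, an effect of 1.71 ± 0.10 (SE, adjusted p = 1.21e-05). The WT effect was smaller, with a difference of -0.88 (adjusted p = 0.0131). Within a library, the ratio of Phgdh to Psat1 CPM was 0.866 and 0.859 in WT stiff, 0.887 and 0.839 in WT soft, 0.455 and 0.417 in Cav1KO stiff and 0.618 and 0.625 in Cav1KO soft. The ratio was thus lower in all Cav1KO libraries than in all WT libraries and lowest in the Cav1KO cells on the stiff substrate, with the uncertainty of the Phgdh counts.

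Shmt2 encodes the mitochondrial enzyme that splits serine into glycine and a one-carbon unit (chr10:127517123-127522444, minus strand, 12 exons in its longest coding transcript). Shmt2 stood at 278 and 294 CPM in WT stiff cells, 123 and 149 CPM in WT soft cells, 349 and 346 CPM in Cav1KO stiff cells and 120.0 and 119 CPM in Cav1KO soft cells. In both genotypes the stiff libraries were above the soft libraries, and on the soft substrate the genotype difference was -0.18 (adjusted p = 0.141), which did not pass the test. Its rise with stiffness was 1.08 ± 0.09 (SE, adjusted p = 8.01e-05) in WT and 1.53 ± 0.09 (SE, adjusted p = 1.33e-05) in Cav1KO cells, and the difference between the effects did not pass the test (-0.45 ± 0.13, adjusted p = 0.0580). Mthfd2 encodes the next mitochondrial enzyme, which oxidizes that unit (chr6:83305691-83325908, minus strand, 8 exons in its longest coding transcript). Mthfd2 stood at 102 and 96.3 CPM in WT stiff cells, 50.4 and 65.4 CPM in WT soft cells, 82.9 and 75.6 CPM in Cav1KO stiff cells and 32.1 and 33.9 CPM in Cav1KO soft cells. Its order was WT stiff, Cav1KO stiff, WT soft and Cav1KO soft, with no overlap between neighbours. Mthfd2 rose with stiffness by 0.78 ± 0.12 (SE, adjusted p = 0.00101) in WT and by 1.24 ± 0.12 (SE, adjusted p = 6.92e-05) in Cav1KO cells. Cav1KO cells had less Mthfd2 than WT cells on the soft substrate, with -0.78 (adjusted p = 0.000717), and the difference on the stiff substrate was -0.32 (adjusted p = 0.0507).

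Slc7a11 encodes the light chain of the cystine-glutamate antiporter, which is induced by ATF4 and by NRF2 (chr3:49892526-50443614, minus strand, 12 exons in its longest coding transcript). Slc7a11 stood at 36.5 and 30.1 CPM in WT stiff cells, 36.6 and 42.7 CPM in WT soft cells, 12.8 and 12.6 CPM in Cav1KO stiff cells and 5.91 and 5.97 CPM in Cav1KO soft cells. All WT libraries were above all Cav1KO libraries, the WT stiff libraries lay just below the WT soft libraries, and the Cav1KO soft libraries were the lowest. On the soft substrate the mean CPM in Cav1KO cells was 0.15 of that in WT cells, and on the stiff substrate 0.381. These differences were -2.55 ± 0.13 (SE, adjusted p = 9.63e-07) and -1.32 ± 0.13 (SE, adjusted p = 5.14e-05). With stiffness Slc7a11 rose in Cav1KO cells, by 0.98 ± 0.13 (SE, adjusted p = 0.000296), while in WT cells the effect was -0.25 ± 0.13 (SE, adjusted p = 0.138). The difference between these effects was -1.23 (adjusted p = 0.00953), the largest in size among the 10 genes.

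**Figure D2:**
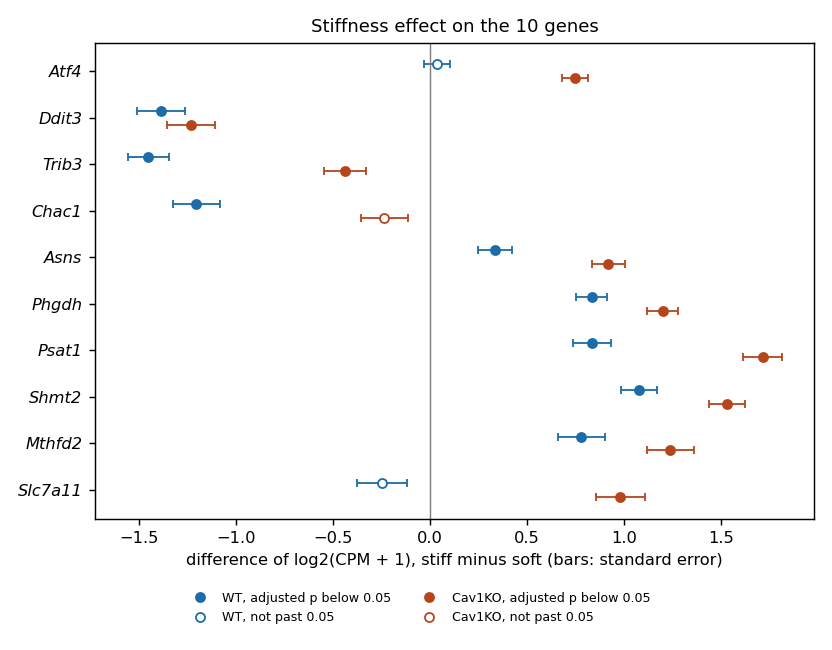
Stiffness effect on the 10 genes, as the difference of log2(CPM + 1) between the stiff and the soft substrate, in WT (blue) and Cav1KO cells (red). Bars are standard errors from limma and open circles did not pass the test. For each gene the Cav1KO value lies to the right of the WT value. The WT and Cav1KO values are -1.39 and -1.23 for Ddit3 and 0.83 and 1.71 for Psat1.

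For all 10 genes the stiffness effect in WT cells was below that in Cav1KO cells, so that the difference was negative, and 6 of 10 differences passed the test. They were those of Atf4, Trib3, Asns, Chac1, Psat1 and Slc7a11, and none passed in the other direction. The background was 6.0% of all genes tested with a difference in this direction and 4.47% in the other. The median difference was -0.65 over the 10 genes and -0.07 over all genes, so that negative differences were the more common over all genes too. Their share was not counted. At an unadjusted p under 0.05, 9 of the 10 passed in this direction and 0 in the other. The shares of all genes at an unadjusted p were not counted. With adjustment, edgeR and DESeq2 gave 6 and 7 of the 10 in this direction and 0 in the other. Beside these, edgeR called 541 of 12494 genes in this direction and 361 in the other, and DESeq2 696 of 11282 and 774. The number of adjusted calls depended on single libraries. Without the first Cav1KO soft library 0 of the 10 passed (8 at an unadjusted p under 0.05), without the second 1, and without the first WT stiff library 3. The 2 Cav1KO soft libraries were the closest pair, whose counts gave a chi-square of 3.49 per degree of freedom against 11.8 in WT stiff, 14.9 in WT soft and 18.1 in Cav1KO stiff, while the fit gives each gene 1 spread for all groups. The part of this unequal spread in the calls was not tested. The differences themselves moved little when a Cav1KO soft library was left out, with values between -0.68 and -1.22 for Atf4, Psat1 and Slc7a11 without the first. The genotype contrasts that follow use the same libraries as the stiffness contrasts and are not independent of them.

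On the soft substrate 8 of the 10 genes were lower in Cav1KO than in WT cells, and Asns and Shmt2 did not pass the test. The background was 29.9% of all genes lower and 24.1% higher in Cav1KO cells. The values ran from -0.41 for Chac1 to -2.55 for Slc7a11, and they were -0.82 ± 0.11 (SE, adjusted p = 0.000265) for Trib3, -0.54 ± 0.12 (SE, adjusted p = 0.00552) for Ddit3 and -0.57 ± 0.10 (SE, adjusted p = 0.00137) for Psat1. None of the 10 was higher with limma, edgeR or DESeq2, also at an unadjusted p under 0.05. The call of Chac1 was lost with DESeq2 (-0.41, adjusted p = 0.0690) and without any 1 of the 4 soft libraries. On the stiff substrate Atf4, Asns, Chac1, Psat1 and Shmt2 were higher in Cav1KO cells and Ddit3, Phgdh and Slc7a11 were lower. These 5 and 3 genes stand beside 25.0% of all genes higher and 26.6% lower. The calls of Asns, Chac1, Phgdh and Slc7a11 were kept when any 1 library was left out. Those of Atf4 (0.20), Ddit3 (-0.39), Psat1 (0.31) and Shmt2 (0.28) were each lost without the first WT stiff library and without either Cav1KO soft library, with values of 0.17, -0.39, 0.21 and 0.24 in the first case. The number of higher genes fell without any 1 of the 4 stiff libraries and without either Cav1KO soft library. The number over all genes fell in these cases too. Without the second WT stiff and the second Cav1KO stiff library, the values were 0.24 and 0.18 for Atf4 and 0.32 and 0.28 for Shmt2.

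**Figure D3:**
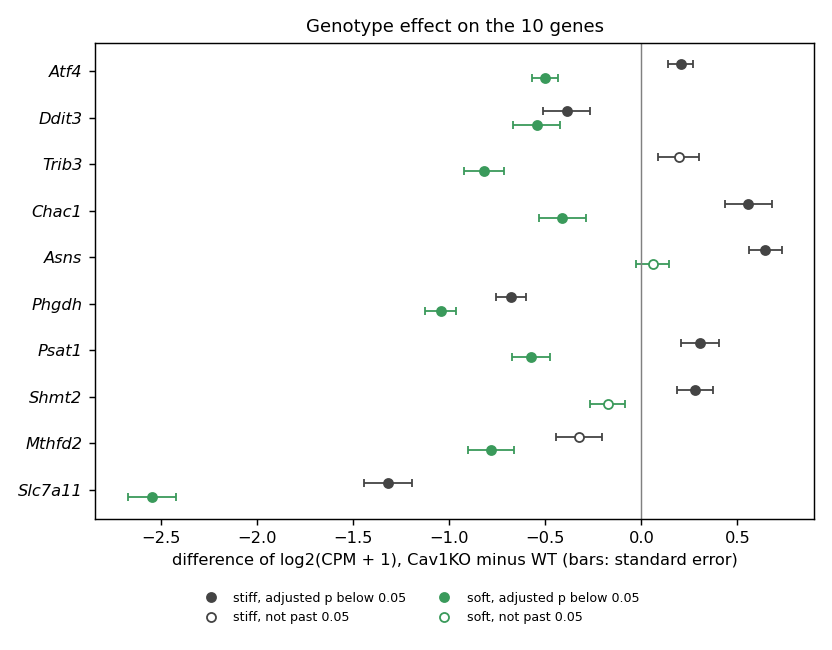
Genotype effect on the 10 genes, as the difference of log2(CPM + 1) between Cav1KO and WT cells, on the stiff (grey) and the soft substrate (green). Bars are standard errors from limma and open circles did not pass the test. On the soft substrate all values but that of Asns (0.06) are below 0, and Slc7a11 lies farthest to the left on both substrates, at -2.55 and -1.32.

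The balance of the 2 opposite groups was described within each library, where the scaling of the library cancels. The mean log2 CPM of Psat1, Phgdh, Shmt2 and Mthfd2 minus that of Ddit3, Trib3 and Chac1 was 5.32 and 5.34 in WT stiff, 2.90 and 3.09 in WT soft, 5.17 and 5.05 in Cav1KO stiff and 3.0 and 2.94 in Cav1KO soft. The stiff libraries of both genotypes lay between 5.05 and 5.34 and the soft libraries between 2.90 and 3.09. Because the first genes rose and the second fell with stiffness in WT cells, the separation by substrate follows from the grouping. Psat1 CPM per Ddit3 CPM was 111 and 126 in WT stiff, 21.7 and 24.5 in WT soft, 206 and 196 in Cav1KO stiff and 23.3 and 23.0 in Cav1KO soft. The grouping of these genes was made with their values known, and the contrast is a description without a test.

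Per kilobase of the longest coding transcript, the levels of the 10 genes could be ordered within a group. In WT stiff cells Phgdh was highest with 347 ± 29.3 CPM per kb (SD, n = 2), followed by Psat1 with 291 ± 26.2 and Shmt2 with 125 ± 4.92. Atf4 with 90.4 ± 3.12 and Asns with 86.0 ± 5.65 CPM per kb were neighbours that did not differ beyond their spread. Trib3 with 4.84 ± 0.0416 and Slc7a11 with 3.61 ± 0.488 CPM per kb were the lowest. In Cav1KO stiff cells Psat1 came before Phgdh, with 359 ± 30.5 and 216 ± 4.97 CPM per kb, and Slc7a11 was again the lowest with 1.38 ± 0.0127. In both groups the place of Phgdh carries the uncertainty of its counts, which the SD does not cover. The length of the coding transcript stands for the isoforms present, which the table does not give.

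Related genes were described from 9 pathway lists that hold none of the 10 genes. Each count of a list stands beside the shares of all genes tested, of which 22.1% rose and 26.3% fell with stiffness in WT cells and 27.9% rose and 28.2% fell in Cav1KO cells. Of 13 stress transcription factors and feedback genes tested, 0 were higher and 8 lower on the stiff substrate in WT cells (median -0.45), and 4 were higher and 5 lower in Cav1KO cells (median -0.11). The 4 that rose in Cav1KO cells were Stc2, Eif4ebp1, which encodes an inhibitor of cap-dependent translation, Cebpg, which encodes a dimerization partner of ATF4, and the death receptor gene Tnfrsf10b. Atf3, a stress-induced factor of the same family, stood at 3.62 and 2.85 CPM in WT stiff cells, 21.9 and 23.8 CPM in WT soft cells, 3.71 and 2.03 CPM in Cav1KO stiff cells and 5.02 and 6.48 CPM in Cav1KO soft cells. Both WT soft libraries stood far above all others. The stiffness effect on Atf3 was -2.50 ± 0.22 (SE, adjusted p = 8.62e-05) in WT and -0.83 ± 0.22 (SE, adjusted p = 0.0119) in Cav1KO cells, with a difference of -1.67 (adjusted p = 0.0221) that was lost without the first WT stiff library and without any 1 of the 4 soft libraries, and the call in Cav1KO cells was lost without the second Cav1KO stiff or the second Cav1KO soft library. Nupr1, a stress-induced chromatin protein, stood at 7.58 and 6.33 CPM in WT stiff cells, 24.9 and 25.2 CPM in WT soft cells, 4.83 and 4.0 CPM in Cav1KO stiff cells and 17.9 and 17.5 CPM in Cav1KO soft cells. It fell with stiffness in both genotypes, with effects of -1.72 and -1.79 (adjusted p = 5.84e-05 and 2.39e-05), as did the lipoprotein receptor gene Vldlr, with -1.42 and -1.05 (adjusted p = 0.000241 and 0.000734). Stc2, a secreted glycoprotein gene induced by ER stress, rose with stiffness in Cav1KO cells, by 0.93 (adjusted p = 0.000465), and its value in WT cells was 0.29 (adjusted p = 0.0988). Gdf15 and Fgf21 are not analysed here.

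**Figure D4:**
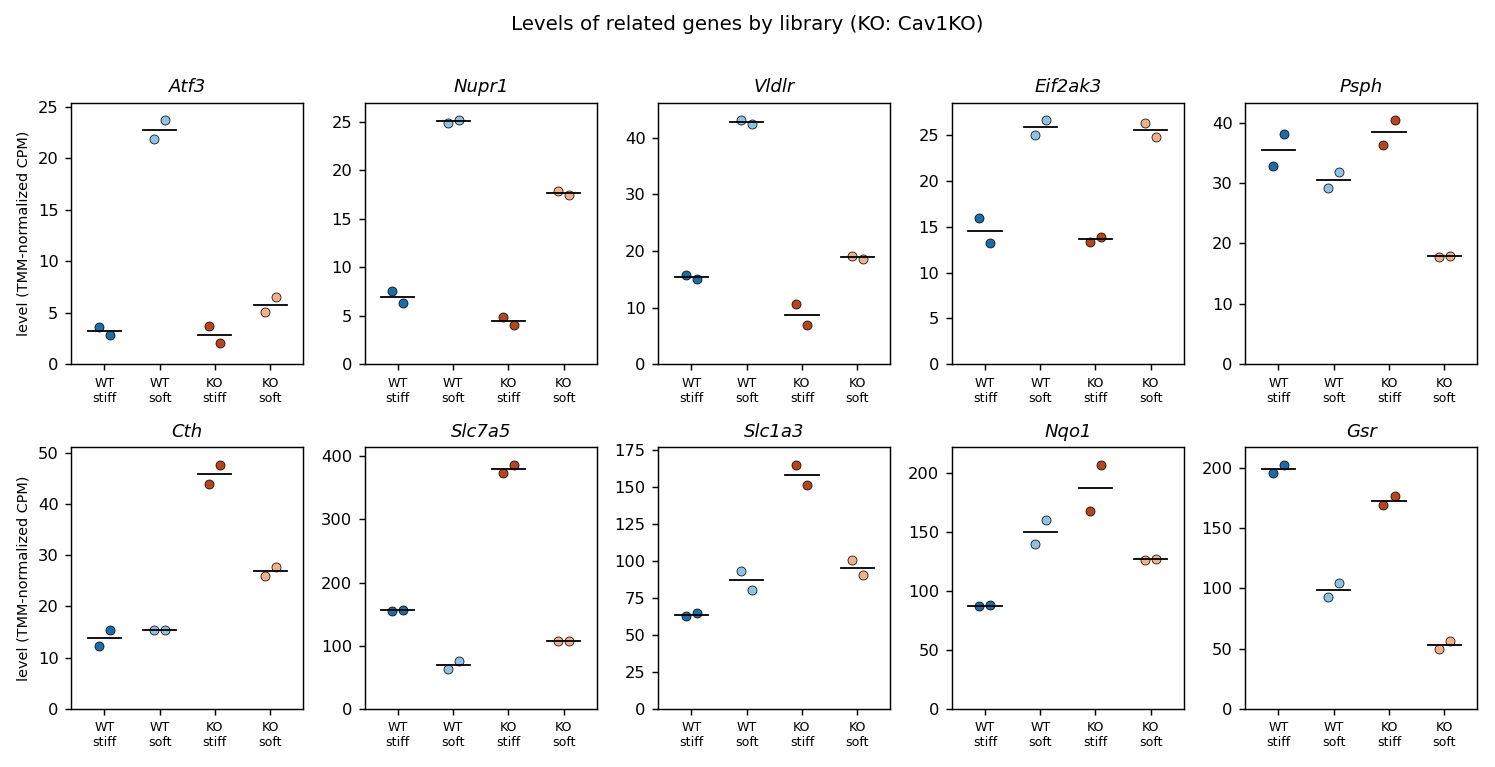
Level of 10 related genes in TMM-normalized CPM (vertical axes from 0, a scale of its own for each gene) in the 4 groups, with points for the 2 libraries and bars for their mean. Atf3, Nupr1 and Vldlr are highest in WT soft, and Cth and Slc7a5 are highest in Cav1KO stiff, with 373 and 387 CPM for Slc7a5.

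Upstream of ATF4, 14 genes were tested, for eIF2α kinases, eIF2 and eIF2B subunits, phosphatase subunits and, with Gcn1l1 and Dnajc3, regulators of these kinases. With stiffness 8 rose and 2 fell in WT cells (median 0.27), and 7 rose and 3 fell in Cav1KO cells (median 0.16). Eif2ak3, which encodes the ER stress kinase PERK, stood at 15.9 and 13.2 CPM in WT stiff cells, 25.1 and 26.7 CPM in WT soft cells, 13.4 and 13.9 CPM in Cav1KO stiff cells and 26.4 and 24.8 CPM in Cav1KO soft cells. The stiff libraries of both genotypes lay below all soft libraries, with effects of -0.79 (adjusted p = 0.000777) in WT and -0.86 (adjusted p = 0.000368) in Cav1KO cells. Eif2ak2, which encodes the kinase PKR that senses double-stranded RNA, also fell, with -0.98 (adjusted p = 0.00521) in WT and -1.60 (adjusted p = 0.000317) in Cav1KO cells. Among the genes for translation factors, Eif2s1, which encodes eIF2α, rose by 0.67 (adjusted p = 0.000421) and 1.14 (adjusted p = 2.58e-05), and Eif2b3 by 0.91 (adjusted p = 0.000164) and 0.96 (adjusted p = 7.42e-05).

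Of 16 other genes of serine, glycine and one-carbon metabolism tested, 9 rose and 1 fell with stiffness in WT cells (median 0.37). In Cav1KO cells 11 rose and 2 fell (median 0.64). Psph, the last enzyme of serine synthesis, stood at 32.8 and 38.1 CPM in WT stiff cells, 29.2 and 31.8 CPM in WT soft cells, 36.4 and 40.5 CPM in Cav1KO stiff cells and 17.8 and 17.9 CPM in Cav1KO soft cells. The Cav1KO soft libraries were the lowest and the other 3 groups lay closer together. In Cav1KO cells Psph rose by 1.06 ± 0.11 (SE, adjusted p = 8.46e-05), and in WT cells the value was 0.21 ± 0.11 (SE, adjusted p = 0.143). The difference between these effects was -0.85 (adjusted p = 0.0196), a call lost without the first WT stiff library or any 1 of the 4 soft libraries. Exons of Psph share 452 bases with Cct6a, a gene on the opposite strand at a mean of 431 CPM, and reads of the 2 genes cannot be told apart there without strand. The values of Psph are uncertain for that reason, and the part of Cct6a reads in them was not tested. Mthfd1, the cytosolic folate enzyme, rose in both genotypes, by 1.2 (adjusted p = 7.77e-05) in WT and 0.80 (adjusted p = 0.000279) in Cav1KO cells. Tyms, which encodes thymidylate synthase and is known for high levels in S phase, rose by 0.67 (adjusted p = 0.00108) in WT and 1.29 (adjusted p = 3.23e-05) in Cav1KO cells.

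Among 12 genes of proline synthesis, transsulfuration and transamination, 5 rose and 1 fell with stiffness in WT cells (median 0.16), and 6 rose and 1 fell in Cav1KO cells (median 0.23). Cth, which encodes the enzyme that makes cysteine from cystathionine, stood at 12.3 and 15.4 CPM in WT stiff cells, 15.3 and 15.4 CPM in WT soft cells, 44.0 and 47.7 CPM in Cav1KO stiff cells and 25.9 and 27.7 CPM in Cav1KO soft cells. All Cav1KO libraries lay above all WT libraries, in the order opposite to that of the cystine importer gene Slc7a11. The genotype difference in Cth was 1.66 ± 0.12 (SE, adjusted p = 1.01e-05) on the stiff and 0.76 ± 0.12 (SE, adjusted p = 0.000889) on the soft substrate. Bcat1, the cytosolic branched-chain aminotransferase, rose with stiffness, by 1.04 (adjusted p = 0.000104) in WT and 1.55 (adjusted p = 1.44e-05) in Cav1KO cells, and was lower in Cav1KO cells on the soft substrate, with -1.05 (adjusted p = 3.76e-05).

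Of 15 amino acid transporters other than Slc7a11, 5 rose and 6 fell with stiffness in WT cells (median -0.16), and 8 rose and 3 fell in Cav1KO cells (median 0.36). Slc7a5, the light chain of the leucine transporter LAT1, stood at 155 and 157 CPM in WT stiff cells, 62.8 and 76.4 CPM in WT soft cells, 373 and 387 CPM in Cav1KO stiff cells and 108 and 108 CPM in Cav1KO soft cells. It was higher on the stiff substrate in both genotypes and higher in Cav1KO cells on both substrates. The stiffness effect was 1.16 ± 0.09 (SE, adjusted p = 6.22e-05) in WT and 1.81 ± 0.09 (SE, adjusted p = 9.12e-06) in Cav1KO cells. Slc1a3, a glutamate and aspartate transporter, stood at 63.0 and 64.6 CPM in WT stiff cells, 93.4 and 80.8 CPM in WT soft cells, 165 and 152 CPM in Cav1KO stiff cells and 100.5 and 90.8 CPM in Cav1KO soft cells. It fell with stiffness in WT cells, with -0.44 (adjusted p = 0.00529), and rose in Cav1KO cells, with 0.72 (adjusted p = 0.000309), and the difference of -1.16 (adjusted p = 0.00438) was kept when any 1 library was left out. The transporter gene Slc38a4 stood at 276 and 292 CPM in WT stiff cells, 220.2 and 231 CPM in WT soft cells, 3.06 and 3.23 CPM in Cav1KO stiff cells and 1.57 and 1.95 CPM in Cav1KO soft cells, and its genotype differences of -6.10 and -6.36 were the largest in this list (adjusted p = 2.60e-09 and 2.51e-09). On the soft substrate 10 of the 15 transporters were lower and 3 higher in Cav1KO cells, beside 29.9% and 24.1% of all genes.

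Most tRNA synthetases rose with stiffness, both those known as ATF4 targets and others. Of 12 such targets 9 rose and 0 fell in each genotype (medians 0.49 and 0.53). Of 8 other cytosolic synthetases 7 rose in each genotype, and 1, Qars, fell in WT cells (medians 0.62 and 0.64). Mars of the first list rose by 0.50 (adjusted p = 0.00187) in WT and 1.03 (adjusted p = 3.66e-05) in Cav1KO cells, and Wars by 0.62 (adjusted p = 0.00139) and 0.56 (adjusted p = 0.00166). Vars of the second list rose by 0.97 (adjusted p = 0.000132) and 1.01 (adjusted p = 6.05e-05), and Farsa by 0.72 (adjusted p = 0.000123) and 0.78 (adjusted p = 4.86e-05). No difference between the lists was tested.

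Of 13 glutathione genes and NRF2 targets, 6 rose and 2 fell with stiffness in WT cells, and 8 rose and 1 fell in Cav1KO cells (medians 0.12 and 0.50). Gsr, which encodes glutathione reductase, stood at 196 and 203 CPM in WT stiff cells, 92.6 and 104 CPM in WT soft cells, 169 and 177 CPM in Cav1KO stiff cells and 49.5 and 56.2 CPM in Cav1KO soft cells. Gsr rose with stiffness by 1.02 (adjusted p = 8.32e-05) in WT and 1.70 (adjusted p = 9.79e-06) in Cav1KO cells, and the subunit gene of glutathione synthesis Gclm by 0.68 (adjusted p = 0.000376) and 1.19 (adjusted p = 2.26e-05). Nqo1, a quinone reductase and known NRF2 target, stood at 87.0 and 87.9 CPM in WT stiff cells, 140.2 and 160.3 CPM in WT soft cells, 168 and 208 CPM in Cav1KO stiff cells and 127 and 127 CPM in Cav1KO soft cells. It fell with stiffness in WT cells, with -0.77 (adjusted p = 0.000573), and rose in Cav1KO cells, with 0.56 (adjusted p = 0.00231), with a difference of -1.33 (adjusted p = 0.00438) that was kept when any 1 library was left out. Of 10 ER chaperone genes, 3 rose and 3 fell in WT cells and 5 rose and 2 fell in Cav1KO cells (medians -0.02 and 0.33). The fallers included the co-chaperone Dnajb9, with -1.1 (adjusted p = 0.000162) in WT and -0.41 (adjusted p = 0.0144) in Cav1KO cells, the latter lost without the first Cav1KO stiff or the second Cav1KO soft library, and the risers included the chaperone Hyou1, with 0.95 (adjusted p = 0.000517) and 0.61 (adjusted p = 0.00354). On the stiff substrate 5 of the 10 chaperone genes were higher and 0 lower in Cav1KO cells, beside 25.0% and 26.6% of all genes, with Pdia4 at 1.0 (adjusted p = 0.000150) and Sdf2l1 at 1.1 (adjusted p = 0.000221).

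**Figure D5:**
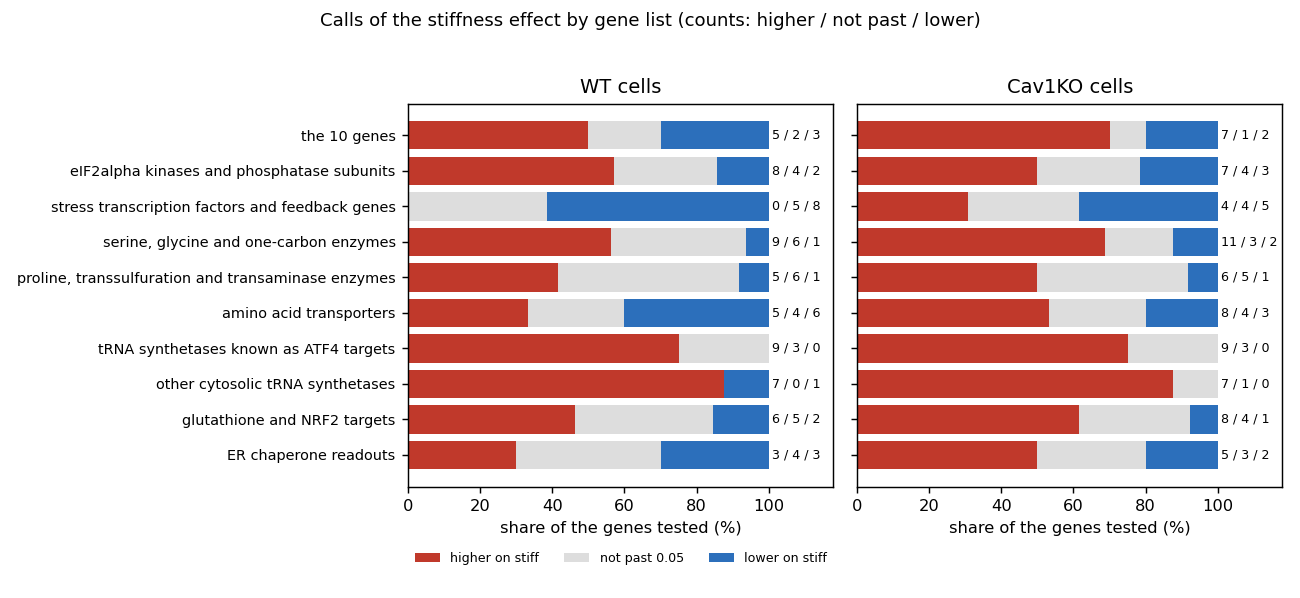
Share of the genes of each list (horizontal axis, % of the genes tested) that were higher on the stiff substrate (red), did not pass the test (grey) or were lower (blue), in WT (left) and Cav1KO cells (right), with the counts at the right of each bar. The stress transcription factors and feedback genes stand out in WT cells with 0 higher and 8 lower, and both lists of tRNA synthetases have 7 or more genes higher.

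Across the 8 libraries, the genes whose log2 levels were most like those of a member were ranked by Pearson's r, as a description. The levels share libraries and groups, so that r mainly follows the 4 group means. The pattern of Psat1 was most like those of Erh (r = 0.998), Srsf7 (0.997) and Tmem97 (0.996), and that of Ddit3 most like those of Vps18 (0.994), Atpif1 (0.993) and Fkbp14 (0.992). For the mean of the 10 genes the closest were 9430015G10Rik (0.983), Nadk2 (0.975) and Galnt12 (0.973). Among the members, the largest values were 0.975 for Psat1 with Shmt2, 0.964 for Phgdh with Mthfd2 and 0.915 for Trib3 with Chac1. Ddit3 with Shmt2 had -0.921, and Atf4 had 0.907 with Psat1, -0.231 with Trib3 and -0.234 with Chac1.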

How the data were processed

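The authors made poly(A) libraries with a kit that does not mark strand and sequenced them as single reads of 60 bases. The submitters' processing notes name CASAVA 1.8.2, cutadapt, RSEM 1.2.3 and GRCm38, and how multi-mapping reads and low genes were handled is not given in the sources used here. The deposited signal is TMM-normalized CPM, 1 value per gene and library, and by the file header the columns name the 8 samples. Within a tolerance of 0.05, 100% of the values were whole multiples of the value of 1 read in their library, so reads were recovered for edgeR 4.0.16 and DESeq2 1.42.0.

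Of 12528 genes, the 12494 that reached 1 CPM in 2 or more libraries were kept. Their log2(CPM + 1) values in all 8 libraries entered a single limma 3.58.1 fit (R 4.3.3) with a mean-variance trend. The 5 contrasts were the stiffness effect in each genotype, their difference and the genotype effect on each substrate, with two-sided tests, Benjamini-Hochberg adjustment and a threshold of 0.05. The scripts were tested on simulated data. The members, the lists and the motif were chosen with earlier results of these data known. In related lists, genes with the largest effects past the threshold were eligible to be named, and the choice among them was made after their values were seen. Coordinates, exons and overlaps are from GENCODE M21 on GRCm38 and promoter starts from RefSeq, and these can differ. Replicate numbers were not used as pairs, because the labels tie them to no shared day and the correlations of replicate deviations between groups ran from -0.367 to 0.415. Other pseudocounts, filters, scalings, tools, a block and leaving out each library were tried.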

Additional observations from a re-analysis of the deposited data

Results flagged for a closer look

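For 6 genes the stiffness effect differed between the genotypes by the test of the difference itself. The effect in WT minus that in Cav1KO cells, on the log2(CPM + 1) scale, was -0.71 for Atf4, -1.01 for Trib3, -0.58 for Asns, -0.97 for Chac1, -0.88 for Psat1 and -1.23 for Slc7a11. The direction was the same with each library left out. With all libraries, edgeR called 6 of the 10 genes and DESeq2 7. Negative differences were called for 750 of all 12494 genes with limma, 541 with edgeR and 696 of 11282 with DESeq2. Without the first Cav1KO soft library the limma calls of the 6 genes were lost, with differences from -0.56 for Asns to -1.22 for Slc7a11. Most were also lost without the second. The calls of Asns and Chac1 were lost without some libraries of other groups as well, and that of Asns without the mean-variance trend. The spread between the 2 libraries was smallest in Cav1KO soft, at a chi-square of 3.49 per degree of freedom against 11.8 to 18.1 in the other groups, and its part in these calls was not tested.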

How the results depend on the processing

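Over 50 results of the 10 genes and 1040 alternatives, 942 kept their side of the threshold. The call was lost in 84, in some only because a change of at least 2-fold was required. It was gained in 14, and 0 changed sign among called values. Values that were not called could change sign within the 942, as for Atf4 with stiffness in WT cells (-0.04 to 0.08). When a change of at least 2-fold was required as well, 1 gene was higher and 3 were lower with stiffness in WT cells. In Cav1KO cells 4 were higher and 1 was lower, and the shares of all genes under that rule were not counted. Under that rule 2 of the differences between the stiffness effects remained called, with 0 genes higher and 1 lower in Cav1KO cells on the stiff and 2 lower on the soft substrate. Quantile normalization left 1 gene lower with stiffness in Cav1KO cells, beside 3014 of all 12494 genes. The number of genes higher in Cav1KO cells on the stiff substrate was 2 without the trend and 3 when only the 2 groups compared were fitted. Of all 12494 genes, 3004 and 2570 were higher. With each library left out in turn, the genes lower with stiffness in Cav1KO cells numbered 1 to 2, the differences between the stiffness effects 0 to 7, and the genes higher in Cav1KO cells on the stiff substrate 2 to 5. Over all genes, the calls of that difference fell from 1309 to between 110 and 388 without 1 of 6 libraries, were 1259 without the second WT stiff library and rose to 3436 without the first Cav1KO stiff library. They were 705 with no trend, 902 with edgeR and 1470 with DESeq2.

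The replicate block left the differences between the stiffness effects at 6 genes. A block with the WT soft numbers crossed, added after seeing the data, gave 9 of the 10 genes and 3653 of all genes. Of 1872 counts of the related lists under alternatives, 1579 stayed within 1.5 times and 293 moved beyond it. With 2 libraries per group, small differences cannot be resolved, and the values of Ddit3, Trib3, Chac1 and Slc7a11 rest on fewer reads than those of the other members.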
